A study of Mus musculus with 30 samples.

Results

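The 10 pluripotency factor genes described here are *Nanog*, *Pou5f1*, *Sox2*, *Klf2*, *Klf4*, *Klf5*, *Esrrb*, *Tfcp2l1*, *Zfp42* and *Tdgf1*. They were named as a list and then found by symbol among the 55487 genes of the embryo count tables, and all 10 were present. The RNA came from 23 single mouse pre-implantation embryos of *Dis3* het matings, in which both parents carried 1 null allele, after hormonal stimulation of the females. DIS3 is a ribonuclease of the RNA exosome, and the null allele lacks exons 3–5 after deletion with CRISPR-Cas9 and imprecise repair. At embryonic day 2.5 (E2.5) the wild-type group held 6 embryos, the het group 2 and the null group 4. At E2.75 the same groups held 3, 5 and 3 embryos. Each embryo was 1 library, with ERCC spike-in RNA added and the genotype read from the DNA of the same embryo. The labels do not say which embryos shared a litter. Binding was profiled by ChIP-seq with an anti-mCherry antibody in mouse embryonic stem cells (mESCs) transfected with *Pou6f1-mCherry* on a pCAG plasmid. POU6F1 there was thus a tagged protein expressed from a strong promoter. The study derived its mESCs from *Dis3* flox/flox blastocysts. The peaks of each of 2 replicates were called against an IgG control of the same cells and against cells transfected with *mCherry* alone.

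The members belong to the network that holds pluripotent cells in the undifferentiated state. OCT4 (from *Pou5f1*) and SOX2 bind DNA side by side, NANOG marks the epiblast lineage, and the Krüppel-like factors, ESRRB and TFCP2L1 maintain the naive state of mESCs downstream of LIF and WNT signals. *Zfp42*, also known as *Rex1*, encodes a zinc finger protein used as a marker of naive cells. *Tdgf1* encodes Cripto, a co-receptor of Nodal at the cell surface. Several of these genes are already transcribed before the blastocyst forms.

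On GRCm38, *Nanog* lies at chr6:122707489-122714633, *Pou5f1* at chr17:35506018-35510772 and *Sox2* at chr3:34650405-34652461. *Klf2* lies at chr8:72319033-72321656, *Klf4* at chr4:55527143-55532466 and *Klf5* at chr14:99298691-99315036. *Esrrb* lies at chr12:86361117-86521628, *Tfcp2l1* at chr1:118627945-118685168, *Zfp42* at chr8:43295063-43306980 and *Tdgf1* at chr9:110939603-110946158. *Klf5* starts 199 kb from the deleted gene *Dis3* on chromosome 14, the nearest of the members to it. Exons of *Pou5f1* overlap the antisense gene *Gm19553* and those of *Tfcp2l1* overlap *Gm23497*, and the counting used no strand. Reads that lay wholly in exons of both genes of a pair were ambiguous and counted for neither.

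The following reference sequences are shown because they carry the binding results for *Zfp42* and *Pou5f1* and, near *Nanog*, letters known for some POU factors. Whether POU6F1 itself prefers the letters marked here was not tested, and no other letters were searched. The first is the part before the RefSeq start site of the 244 bp replicate 1 peak called against mCherry at *Zfp42*, at chr8:43307010-43307219 (minus strand). The second is the 101 bp around the summit of the peak upstream of *Pou5f1*, at chr17:35504001-35504101 (plus strand). The third is 101 bp of the *Nanog* promoter, at chr6:122707371-122707471 (plus strand), where no peak was called against mCherry. Capitals mark matches to the octamer ATGCAAAT, to its first letters ATGCAAA or to the joint POU and SOX letters GCATNACAA, on either strand.
Zfp42: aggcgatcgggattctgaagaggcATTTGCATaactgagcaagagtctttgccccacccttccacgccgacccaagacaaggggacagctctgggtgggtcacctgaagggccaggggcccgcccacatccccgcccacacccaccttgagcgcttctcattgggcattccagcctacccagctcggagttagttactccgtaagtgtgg
Pou5f1: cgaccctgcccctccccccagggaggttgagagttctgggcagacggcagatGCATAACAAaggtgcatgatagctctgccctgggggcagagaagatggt
Nanog: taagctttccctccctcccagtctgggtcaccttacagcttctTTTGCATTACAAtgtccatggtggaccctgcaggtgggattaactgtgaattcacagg

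The *Zfp42* peak held 1 octamer, which is written ATTTGCAT on the strand shown. It lay toward the upstream end of the peak, outside the 101 bp around the summit. The other peaks were searched in 101 bp windows only. The octamer was found in 1.74% of 32851 RefSeq promoter windows of 300 bp, and among the 9 members with such a window it was found in *Zfp42* alone. In 244 bp windows around the summits of all 3369 consensus peaks against mCherry, 1.13% held it. ATGCAAA was found in the windows of *Nanog*, *Sox2* and *Zfp42* and in 4.63% of all promoters. The joint letters were chosen after these sequences were seen. They were found in 240 promoters (0.731%), of the members in that of *Nanog* alone, and in 5 of the 3369 windows of 101 bp around summits (0.148%), that of *Pou5f1* included. ATGCAAA contains the first letters of the octamer, so these matches overlap. The windows of 101 bp around the summits in front of *Klf2* (chr8:72318860-72318960, plus strand) and *Klf4* (chr4:55532615-55532715, minus strand), which had the highest fold enrichments of the members against IgG beside *Klf5*, held no match to these letters.
Klf2: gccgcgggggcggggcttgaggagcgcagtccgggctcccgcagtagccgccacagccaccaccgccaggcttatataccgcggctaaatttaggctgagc
Klf4: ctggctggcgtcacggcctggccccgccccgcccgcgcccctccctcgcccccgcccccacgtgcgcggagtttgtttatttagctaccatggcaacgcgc

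Levels are counts per 1000000 counts of a library (CPM) after TMM normalization, and levels between genes were compared as CPM per kb of exon. Libraries held 1690192 to 14015980 gene counts, with a median of 8030848. The E2.75 null libraries held 1914128, 1690192 and 7051002 counts, so 2 of them were the shallowest of the series. Reads not lying wholly within the annotated exons of a gene were 41.1% to 43.9% of the E2.75 null libraries. They were 32.3% to 39.5% of the E2.5 null libraries, against 20.99% to 33.4% in all others. A gene was called changed at an adjusted p under 0.1 by edgeR's quasi-likelihood test (Benjamini-Hochberg over all genes tested) and a log2 fold change beyond 1. *Dis3* itself had 0 to 21.4 CPM in the 7 null embryos and 30.3 to 58.9 CPM in the 7 het embryos. The 9 libraries labelled wild-type had 18.0 to 146 CPM, and the lowest of them, the E2.5 library labelled wild-type replicate 6, lay within the null range. With the stages merged, *Dis3* was lower in null embryos by edgeR, at a log2 fold change of -2.06 against het (adjusted p = 0.0253) and -3.01 against wild-type (adjusted p = 0.000943). The reads of *Dis3* are counted over the whole gene, including exons outside the deletion. Called results that rest on the E2.5 library labelled wild-type replicate 6 are therefore also given without it. For *Dis3* the log2 value against wild-type was then -3.14 (adjusted p = 0.000619 by edgeR).

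*Pou5f1* was the most abundant member and *Sox2* the least, and the members spanned the range from the top to the bottom of the genes tested. Over the 23 embryos the median was 445 CPM per kb for *Pou5f1*, higher than in 99.4% of the 13407 genes tested that have an annotated length. *Klf5* followed with 155 CPM per kb and *Zfp42* with 97.0 CPM per kb. The order went on with *Tfcp2l1* (43.4 CPM per kb), *Tdgf1* (42.0 CPM per kb), *Klf2* (39.6 CPM per kb), *Nanog* (21.97 CPM per kb), *Klf4* (12.6 CPM per kb) and *Esrrb* (8.68 CPM per kb). *Sox2* was last at 0.0503 CPM per kb. *Pou5f1* was above *Klf5* in 22 of 23 embryos and *Esrrb* above *Sox2* in 23 of 23. *Tfcp2l1* and *Tdgf1* (the first higher in 12 of 23 embryos), *Tdgf1* and *Klf2* (11 of 23), and *Klf4* and *Esrrb* (13 of 23) did not separate. *Pou5f1* varied least between embryos, with a coefficient of variation of 29.6%, and *Sox2* (158%) and *Nanog* (77.1%) most.

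*Sox2*, the partner of OCT4, was at the edge of detection. It had 0 counts in 5 of 6 wild-type embryos at E2.5 and 56 counts (4.55 CPM) in the other. At E2.75 the 3 wild-type embryos had 2, 1 and 0 counts, the 5 het embryos 28, 1, 17, 20 and 0 counts, and the 3 null embryos 0, 8 and 13 counts. A count of 0 allows up to 3 counts in a library. Differences of *Sox2* between genotypes or stages were not detectable at this depth, and its fitted values had standard errors from 1.34 to 3.20 on the log2 scale.

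**Figure D1:**
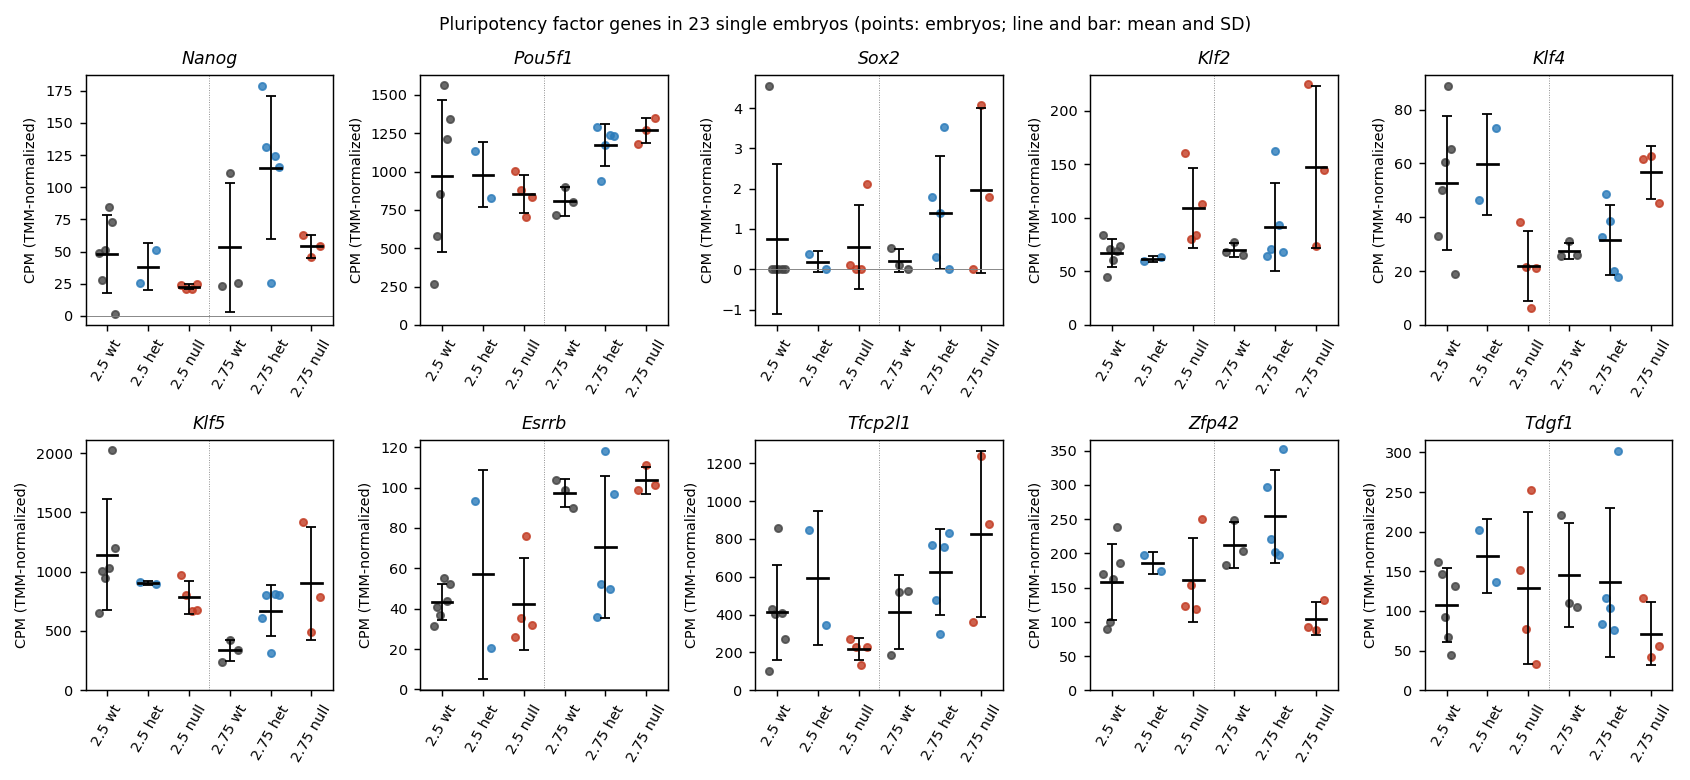
Levels of the 10 members in each embryo in CPM after TMM normalization, by stage and genotype, with points for single embryos and a line and bar for the mean ± SD per group (wt, wild-type; scales differ between panels). *Zfp42* in the 3 E2.75 null embryos (88.3 to 132 CPM) lay below every E2.75 het and wild-type embryo.

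Wild-type embryos of both stages were compared to see how the members moved with time. *Klf5*, a factor used by both the inner cell mass and the trophectoderm, fell, and *Esrrb*, an orphan nuclear receptor, rose. At E2.5 the 6 embryos had 651, 1002, 944, 1034, 2023 and 1201 CPM of *Klf5*, and at E2.75 the 3 embryos had 242, 423 and 342 CPM. Every E2.75 embryo was below every E2.5 embryo. The log2 fold change was -1.77 ± 0.36 (SE, adjusted p = 0.00473 by edgeR), and the exact two-sided permutation p was 0.0119, the smallest that 84 assignments can give for groups of 3 and 6. For *Esrrb* the E2.5 levels were 31.5, 40.9, 36.7, 55.0, 43.6 and 52.0 CPM and the E2.75 levels 104, 99.0 and 89.8 CPM, without overlap. Its log2 fold change was 1.17 ± 0.41 (SE, adjusted p = 0.0960 by edgeR) and its exact permutation p was also 0.0119.

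Of 18677 genes tested, 3.74% were called higher and 3.64% lower at E2.75, and every E2.75 embryo was above every E2.5 embryo for 5.03% and below for 6.38%. The other 8 members were not called, with log2 values from -1.92 for *Sox2* (SE 2.29) to 0.43 for *Tdgf1*. Without the E2.5 library labelled wild-type replicate 6 both calls remained, at -1.75 for *Klf5* and 1.23 for *Esrrb*. *Esrrb* lost the call without E2.5 replicate 1, 2, 3 or 5 or any of the E2.75 replicates 1, 2 and 3 (adjusted p = 0.139 to 0.226 by edgeR), with log2 values from 1.09 to 1.25 over all 9 fits. Scaled to ERCC counts, the median of all genes rose by 0.89, so that *Klf5* was at -0.78 (not called) and *Esrrb* at 2.07, or -1.67 and 1.18 relative to that median. The stages hold different embryos, and litter or collection day cannot be told apart from stage. *Pou6f1*, the precipitated factor, rose over the same interval (log2 1.79 ± 0.61, SE, adjusted p = 0.0873 by edgeR). The *Pou6f1* call was kept without E2.5 replicate 3 (2.36) and without the E2.5 library labelled wild-type replicate 6 (1.84, adjusted p = 0.0962 by edgeR). It was lost without E2.5 replicate 1, 2, 4 or 5 or any of the 3 E2.75 embryos (adjusted p up to 0.341 by edgeR), with log2 values from 1.37 to 2.36 over all 9 fits.

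At E2.75, the null embryos were compared with both control genotypes of the same stage. *Zfp42* was lower in null embryos than in either, and *Klf5* was higher than in wild-type embryos. *Zfp42* had 92.2, 88.3 and 132 CPM in the null embryos, from 188, 173 and 957 counts. The het embryos had 298, 220, 202, 197 and 352 CPM and the wild-type embryos 182, 249 and 204 CPM. The null embryos did not overlap either control group. Against het the log2 fold change was -1.32 ± 0.27 (SE, adjusted p = 0.0188 by edgeR), and the exact two-sided permutation p was 0.0179, the smallest that 56 assignments allow. Against wild-type it was -1.07 ± 0.29 (SE, adjusted p = 0.0688 by edgeR), where 3 against 3 embryos cannot go below an exact p of 0.10. These 2 comparisons share the null embryos.

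Against het, 14442 genes were tested, of which 2.51% were called higher and 2.31% lower, and every null embryo was below every het embryo for 6.11%. Against wild-type the shares called were 2.19% higher and 2.35% lower, and those without overlap 12.5% above and 10.6% below. The *Zfp42* call against het was kept when any of the 8 embryos was left out, with log2 values from -1.52 to -1.17. Without the shallow null replicates 1 or 2 it was -1.27 and -1.22. Against wild-type the call was lost without wild-type replicate 2 or 3 (adjusted p = 0.171 and 0.157 by edgeR) or without null replicate 1 or 2 (adjusted p = 0.143 and 0.183 by edgeR), at log2 values from -1.10 to -0.95. Scaled to ERCC counts, the median of all genes at E2.75 fell by 0.74 against het and by 0.40 against wild-type. *Zfp42* was then at -2.08 and -1.49, or -1.34 and -1.09 relative to these medians. The share of reads not wholly within exons and the depth of the null libraries moved with genotype at this stage. Their part in these differences was not tested.

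*Klf5* had 1420, 495 and 787 CPM in the E2.75 null embryos against 242, 423 and 342 CPM in wild-type embryos, without overlap. The log2 fold change was 1.38 ± 0.40 (SE, adjusted p = 0.0907 by edgeR). The call was kept only without null replicate 2 (1.67, adjusted p = 0.0683 by edgeR). It was lost without any of the other 5 embryos, namely wild-type replicates 1, 2 and 3 and null replicates 1 and 3, and was lowest without null replicate 1 (0.85, adjusted p = 0.276 by edgeR). Under the ERCC scaling *Klf5* was at 0.84 and not called, or 1.24 relative to the median of all genes. The het embryos, at 612, 803, 318, 811 and 804 CPM, lay between and overlapped both, and null vs. het gave 0.40 ± 0.35 (SE, adjusted p = 0.628 by edgeR).

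*Pou5f1* and *Klf4* also had every E2.75 null embryo above every wild-type embryo, without passing the test. *Pou5f1* had 1183, 1270 and 1352 CPM in null and 715, 903 and 799 CPM in wild-type embryos (log2 0.61 ± 0.21, SE, adjusted p = 0.138 by edgeR). The het embryos ranged from 942 to 1293 CPM. *Klf4* had 61.8, 62.8 and 45.5 CPM in null and 25.4, 31.0 and 26.1 CPM in wild-type embryos (log2 0.99 ± 0.43, SE, adjusted p = 0.230 by edgeR). With *Klf5*, 3 of the 10 members were above without overlap, beside 12.5% of all genes. *Tdgf1*, the Nodal co-receptor, had 116, 41.8 and 55.8 CPM in null, 221, 110 and 105 CPM in wild-type and 76.6 to 302 CPM in het embryos, with overlap. It was at -1.06 against wild-type (adjusted p = 0.300 by edgeR) and -0.96 against het (adjusted p = 0.334 by edgeR).

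**Figure D2:**
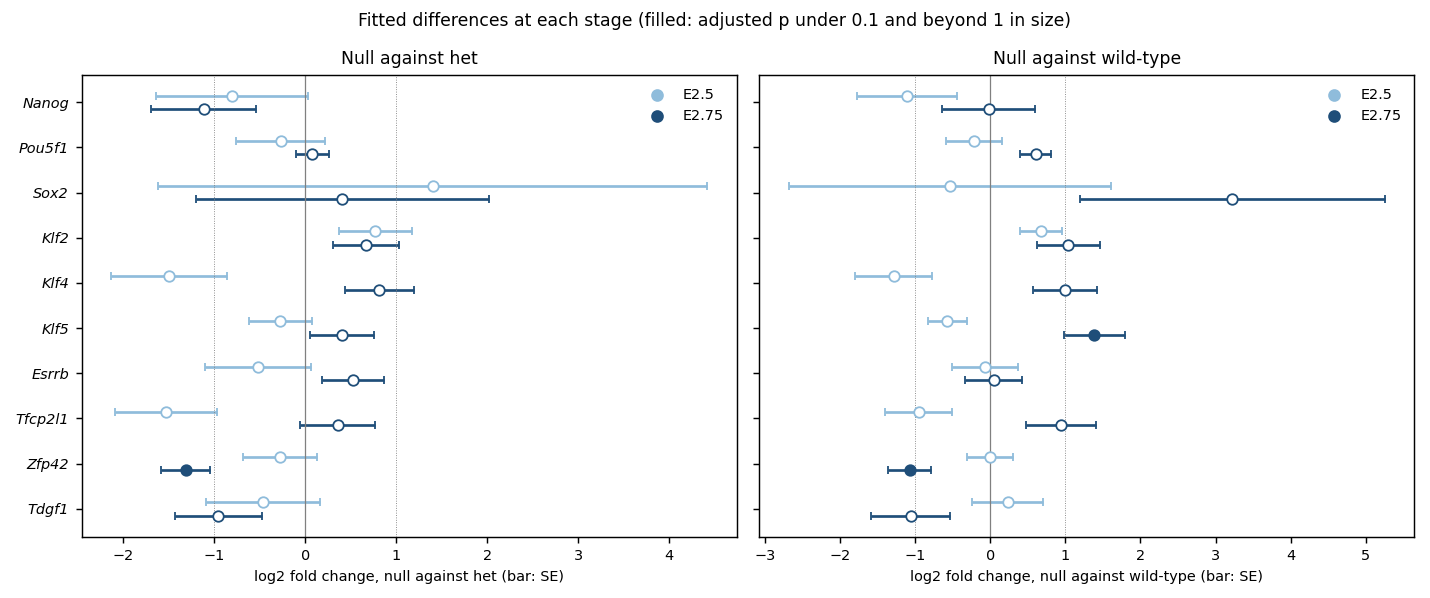
Log2 fold changes of the 10 members in null embryos against het (left) and wild-type (right), as points with SE bars for E2.5 (light) and E2.75 (dark), with filled points for called genes and dotted lines at the fold limit. The horizontal scales of the panels differ. *Zfp42* at E2.75 stood at -1.32 against het and -1.07 against wild-type.

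At E2.5, no member was called in null embryos against either control. *Klf4* had 38.3, 21.6, 6.38 and 21.3 CPM in null embryos, 46.5 and 73.0 CPM in het embryos and 18.8 to 88.9 CPM (median 55.3) in wild-type embryos. All null embryos were below both het embryos and overlapped the wild-type range. The null levels of *Nanog* and *Tfcp2l1* were also below both het embryos, and those of *Klf2* above both. The share of all genes without overlap was not counted here, and 4 against 2 embryos allow only 15 assignments. For *Klf4* the log2 value was -1.50 ± 0.63 against het (SE, adjusted p = 0.522 by edgeR) and -1.29 ± 0.51 against wild-type (SE, adjusted p = 0.260 by edgeR). *Tfcp2l1* had 272, 231, 136 and 230 CPM in null embryos and 846 and 345 CPM in het embryos (log2 -1.53, adjusted p = 0.515 by edgeR). *Nanog* had 23.9, 21.1, 20.95 and 25.0 CPM in null embryos and 1.83 to 84.9 CPM in wild-type embryos (log2 -1.11 ± 0.66, SE, adjusted p = 0.471 by edgeR). The lowest of these, 1.83 CPM, was the E2.5 library labelled wild-type replicate 6, without which the value was -1.36 (adjusted p = 0.149 by edgeR). *Zfp42*, which fell at E2.75, had 123, 154, 119 and 250 CPM in null embryos against 89.6 to 238 CPM in wild-type embryos (log2 0.00 ± 0.30, SE). Of 15904 genes tested, 0% were called higher and 0.0126% lower against het, where only 2 het embryos were available (701 and 772 genes at an unadjusted p under 0.05). DESeq2 called 449 genes higher and 149 lower there. Against wild-type, 1.36% were called higher and 0.459% lower.

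With the stages merged by genotype, no member was called in null vs. het, null vs. wild-type or het vs. wild-type embryos. *Klf2* had the smallest adjusted p in null vs. wild-type (0.0440 by edgeR), at a log2 fold change of 0.88 ± 0.25 (SE), below the fold limit. *Klf2*, a zinc finger factor of the naive state, had 160, 80.1, 83.5 and 113 CPM in the E2.5 null and 225, 73.5 and 144 CPM in the E2.75 null embryos. The wild-type levels were 44.6 to 84.4 CPM (median 69.7) at the earlier stage and 67.8, 77.0 and 65.0 CPM at the later one. All 7 null embryos were above the wild-type median and 3 of them lay within the wild-type range. The exact permutation p was 0.000874 over all assignments and 0.00167 within stages. These permutation values are not adjusted for the number of genes. Without the E2.5 library labelled wild-type replicate 6 the log2 value was 0.90 (adjusted p = 0.0590 by edgeR). Over the 16 fits that left out 1 embryo it ran from 0.63 to 0.98 (adjusted p = 0.0309 to 0.194 by edgeR). Scaled to ERCC counts it was 0.53 (adjusted p = 0.452 by edgeR), or 0.90 relative to the median of all genes. In merged null vs. het *Klf2* was at 0.60 ± 0.27 (SE, adjusted p = 0.242 by edgeR).

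*Zfp42* was at -0.78 ± 0.26 in merged null vs. het (SE, adjusted p = 0.0919 by edgeR), below the fold limit, with an exact permutation p of 0.00524 and of 0.00833 within stages. Without E2.5 null replicate 4, the null embryo with the highest *Zfp42* level (250 CPM), it was -1.04 and called (adjusted p = 0.0225 by edgeR). *Nanog* was at -1.37 ± 0.55 (SE, adjusted p = 0.176 by edgeR), with an exact permutation p of 0.0425 that rose to 0.0726 within stages. The het group holds 5 of its 7 embryos at E2.75 and the null group 3 of 7. The E2.75 het embryos had 179, 132, 25.8, 124 and 116 CPM of *Nanog*, and 4 of them were above every null embryo of either stage. The E2.75 null embryos had 63.3, 45.4 and 54.3 CPM and the wild-type embryos 23.04, 111 and 25.4 CPM. At E2.75 alone, null vs. het gave -1.12 ± 0.58 for *Nanog* (SE, adjusted p = 0.347 by edgeR). This was called only with ERCC scaling (-1.91) and without a filter on low counts. With the stages merged, *Nanog* was called only where the fit held null and het embryos alone (-1.40) or was scaled to ERCC counts (-2.40). The latter was -1.32 relative to a median of -1.08. Against wild-type embryos *Nanog* was at -0.46 ± 0.51 (SE, adjusted p = 0.769 by edgeR), a value that did not exceed its standard error.

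Of 13415 genes tested with the stages merged, 3.67% were called higher and 2.06% lower in null vs. het, and 3.66% higher and 1.59% lower in null vs. wild-type. The shares in het vs. wild-type were 0% and 0% by edgeR (424 genes higher and 510 lower at an unadjusted p under 0.05), while DESeq2 called 37 higher and 28 lower. The member with the largest het vs. wild-type value was *Nanog*, at 0.90 ± 0.50 (SE, adjusted p = 0.720 by edgeR). The median log2 value of the 10 members was -0.11 in null vs. het and 0.04 in null vs. wild-type, beside 0.02 and -0.02 over all genes tested. At E2.5 it was -0.37 and -0.38, and at E2.75 0.38 and 0.77, beside medians of all genes from -0.05 to 0.03. The comparisons of a stage share the null embryos, so that their values are not independent.

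An interaction term tested how the null effect changed from E2.5 to E2.75, as null minus wild-type at E2.75 less the same at E2.5. No gene of 18677 was called by edgeR (0% in either direction), with 1159 higher and 886 lower at an unadjusted p under 0.05, while DESeq2 called 220 and 124. *Klf5* was at 1.95 ± 0.49 (SE, adjusted p = 0.261 by edgeR) and *Klf4* at 2.28 ± 0.71 (SE, adjusted p = 0.345 by edgeR). DESeq2 called both, with adjusted p = 0.0232 for *Klf5* and 0.0548 for *Klf4*. *Tfcp2l1* was at 1.90 (adjusted p = 0.346 by edgeR) and *Zfp42* at -1.06 (adjusted p = 0.381 by edgeR). Without a filter on low counts, *Klf5* and *Tfcp2l1* (adjusted p = 0.00983 by edgeR) were called. *Klf4* thus had fitted values of -1.29 at E2.5 and 0.99 at E2.75 against wild-type, while a difference between the stages did not pass the main test.

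**Figure D3:**
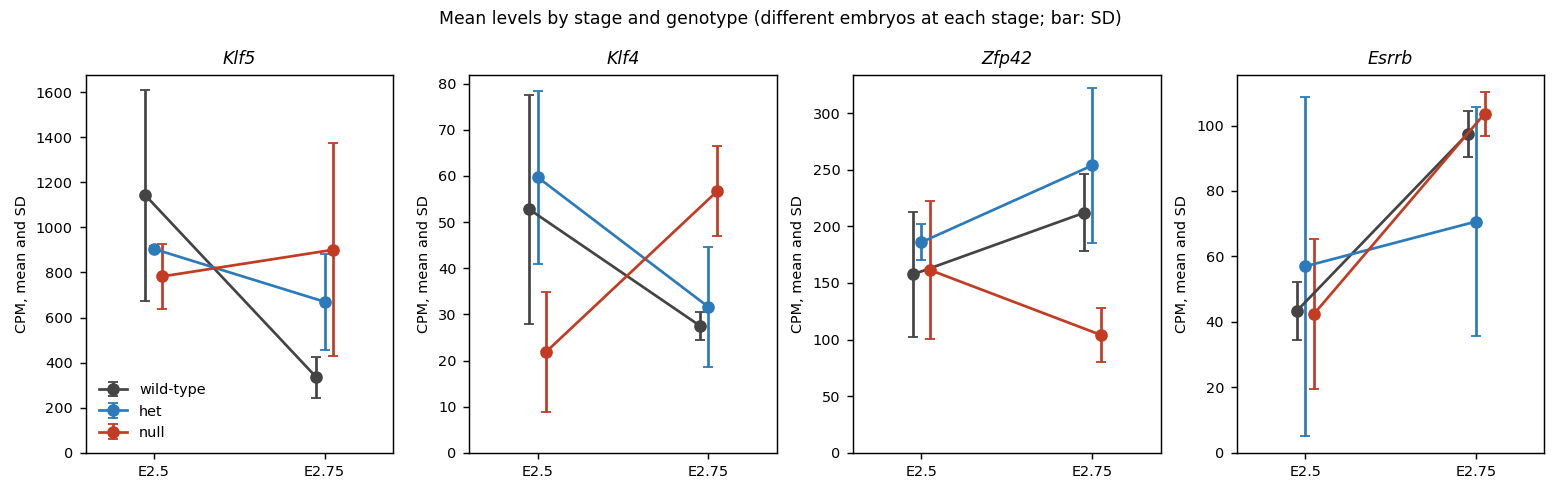
Mean levels ± SD of *Klf5*, *Klf4*, *Zfp42* and *Esrrb* in CPM by stage and genotype, where the stages hold different embryos. *Klf5* fell in wild-type embryos from 1142 to 336 CPM, and its mean was 782 CPM in E2.5 null and 900 CPM in E2.75 null embryos.

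The neighbouring genes of the network were counted from lists that were chosen with earlier results of these data known, with the stages merged. Of 24 other pluripotency network genes, 21 were tested, and 1 fell and 0 rose in null vs. het, with a median log2 value of 0.00. That gene was *Tet2*, which encodes a methylcytosine dioxygenase (-2.30 ± 0.48, SE, adjusted p = 0.00556 by edgeR), and 0 were called in null vs. wild-type, where it was at -0.97 (adjusted p = 0.290 by edgeR). Of 5 tested LIF pathway genes, *Ptpn11*, which encodes the phosphatase SHP2, fell against het (-1.83 ± 0.40, SE, adjusted p = 0.00854 by edgeR) and 0 rose, and 0 were called against wild-type, where *Ptpn11* was at -1.09 (adjusted p = 0.118 by edgeR). Without the E2.5 library labelled wild-type replicate 6, in a fit chosen after seeing the data, *Ptpn11* was called against wild-type as well (-1.18, adjusted p = 0.0929 by edgeR). Of 10 tested genes of the Nodal and TDGF1 pathway, 0 were called in either comparison. Among 11 tested other *Klf* genes, *Klf6* fell against het (-2.73 ± 0.83, SE, adjusted p = 0.0627 by edgeR) and 0 were called against wild-type. Among 8 tested other *Sox* genes, *Sox15* rose (1.59 ± 0.30, SE, adjusted p = 0.00212 by edgeR) and *Sox6* (-5.84, adjusted p = 0.0304 by edgeR) and *Sox13* (-1.78, adjusted p = 0.0866 by edgeR) fell against het. *Sox6* also fell against wild-type (-6.23, adjusted p = 0.0189 by edgeR), and without the same library it was at -6.38 (adjusted p = 0.0172 by edgeR).

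Markers of other cell types were counted beside these. Of 9 tested trophectoderm markers, *Gata3* (-2.12 ± 0.48, SE, adjusted p = 0.00941 by edgeR) and *Krt18* (-2.95 ± 0.80, SE, adjusted p = 0.0352 by edgeR) fell in merged null vs. het and 0 were called in null vs. wild-type. At E2.75, where *Zfp42* fell, the summed level of the 12 trophectoderm markers was 406 to 521 CPM in null, 458 to 1073 CPM in het and 430 to 583 CPM in wild-type embryos. *Cdx2* was at 14.3 to 31.6 CPM, 7.76 to 137 CPM and 0 to 37.6 CPM in the same order, and *Gata3* at 37.7 to 61.7 CPM, 21.5 to 282 CPM and 20.7 to 67.4 CPM. Against wild-type embryos at E2.75, *Krt8* was called higher (1.94, adjusted p = 0.0887 by edgeR) and *Tead4* lower (-1.42, adjusted p = 0.0270 by edgeR), and *Gata3* and *Krt18* were called lower against het. *Krt8* and *Tead4* were named after their values were seen. The part of these markers in the *Zfp42* difference was not tested. The 7 primitive endoderm markers summed to 369 to 442 CPM in E2.75 null embryos, above het (267 to 299 CPM) and wild-type (120 to 231 CPM) embryos. Of all genes, 12.5% had every null embryo above every wild-type embryo, and the share above het was not counted. *Gata6* was higher against wild-type (1.60 ± 0.32, SE, adjusted p = 0.0229 by edgeR). *Gata6* alone made up 327 to 420 CPM of the sum in null embryos. The other 3 tested markers had negative values and were not called, and the median of the 4 was -0.52 against wild-type and -0.94 against het. The part of this in the *Zfp42* and *Klf5* differences was not tested. The 9 oocyte markers summed to 16.1 to 28.6 CPM in E2.75 null embryos, 9.87 to 23.6 CPM in het and 7.06 to 19.3 CPM in wild-type embryos, with *Zp3* at most 7.65 CPM in any E2.75 embryo. *Amh*, a cumulus cell marker, was at 0 in all E2.5 embryos and at most 1.52 CPM in any embryo. The 11 cumulus cell markers summed to 29.1 to 32.1 CPM in E2.75 null, 8.40 to 32.6 CPM in het and 7.65 to 14.3 CPM in wild-type embryos. Every null embryo thus lay above every wild-type embryo, as for 12.5% of all genes. In the E2.75 null group 7 of the 11 markers had 0 counts. Of 2 tested against wild-type at E2.75, 0 were called. Without the E2.5 library labelled wild-type replicate 6, the one cumulus marker tested in merged null vs. wild-type, *Amhr2*, was called higher (1.54, adjusted p = 0.0773 by edgeR). The part of these markers in the *Zfp42* and *Klf5* differences was not tested. In whole embryos, fewer cells of a type and less RNA per cell cannot be told apart.

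The peak lists were used to ask which members lay near POU6F1-mCherry binding in mESCs. Among the members, *Zfp42* had the peak with the highest enrichment over the mCherry control in both replicates, at its promoter. The lists held 82694 and 31348 peaks for replicate 1, against IgG and against mCherry, and 24524 and 3630 peaks for replicate 2. Peaks were counted from 5 kb before to 5 kb after a gene, and a consensus peak was one of replicate 1 that overlapped one of replicate 2 against the same control. Against IgG, 10 of 10 members had a consensus peak, beside 72.2% of 13407 genes tested. Against mCherry, 5 of 10 members had one, namely *Pou5f1*, *Klf2*, *Klf4*, *Esrrb* and *Zfp42*, beside 28.1% of the genes. In single lists, all 10 members had a peak in replicate 1 against IgG (87.8% of the genes), in replicate 2 against IgG (75.5%) and in replicate 1 against mCherry (82.6%). In replicate 2 against mCherry 6 had one (28.4%), the sixth being *Nanog*. Peak counts grow with the length of a gene, and *Esrrb*, the longest member, had 20 peaks in replicate 1 against IgG.

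The summit of the *Zfp42* peak lay 111 to 134 bp before its nearest annotated start site in all 4 lists. Its fold enrichment was 12.3 against IgG and 18.5 against mCherry in replicate 1, and 5.43 and 10.7 in replicate 2. The -log10 q was 22.5, 33.0, 8.11 and 15.9 in the same order. Against mCherry this was higher than 97.2% of the peaks of the replicate 1 list and 99.1% of those of the replicate 2 list by fold enrichment. It was the 1 member of 10 left against mCherry when both replicates had to reach a -log10 q of 10, beside 9.18% of the 13407 genes tested. The sequence of this *Zfp42* peak is the first one printed above.

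*Klf4* and *Klf2* had promoter peaks in all 4 lists. The summit before *Klf4* lay 188 to 199 bp upstream, with a fold enrichment of 20.2 and 10.2 in replicate 1 (against IgG and mCherry) and 10.1 and 3.75 in replicate 2. The summit before *Klf2* lay 123 to 154 bp upstream, with 17.2 and 7.86 in replicate 1 and 8.71 and 4.41 in replicate 2. Both had a higher fold enrichment against IgG than against mCherry in each replicate, and *Zfp42* a higher one against mCherry. The lists differ in length and control, so that these values were not tested against each other.

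The *Pou5f1* consensus peak lay about 2 kb upstream, at chr17:35503942-35504117 in replicate 1 against IgG, with a fold enrichment of 6.35 and 5.73 in replicate 1 and 5.08 and 6.01 in replicate 2. The joint POU and SOX letters stand in the sequence around its summit printed above. The peak at the *Pou5f1* start site (fold enrichment 7.71 in replicate 1 and 5.14 in replicate 2) was called against IgG alone. The *Esrrb* consensus peak was intronic, at chr12:86501787-86502241 in replicate 1 against mCherry, with fold enrichments of 4.09 in replicate 1 and 5.26 in replicate 2. A peak of *Esrrb* with 14.9 in replicate 1 against mCherry had no partner in replicate 2.

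*Klf5* and *Tfcp2l1* had a peak at the start site in both replicates against IgG, but against mCherry in replicate 1 alone. For *Klf5* the fold enrichment was 18.0 and 8.46 in replicate 1 and 6.92 in replicate 2 against IgG. For *Tfcp2l1* it was 14.9 and 9.78 in replicate 1, with peaks of 4.28 and 5.18 in replicate 2 against IgG. An intronic peak of *Tfcp2l1*, 20206 bp from a start site, had 10.4 against IgG and 11.3 against mCherry in replicate 1. In replicate 2 the intronic peak was called against IgG alone (4.28). Against IgG, *Nanog* had peaks in both replicates at -1665 and -1566 bp from a start site (4.02 and 5.14) and at -4666 and -4597 bp (5.14 and 4.94), and a peak at its start site in replicate 1 alone (5.42). Its peaks against mCherry, with 5.22 in replicate 1 and 4.72 in replicate 2, lay more than 4 kb upstream and did not overlap each other. *Sox2*, *Klf5*, *Tfcp2l1* and *Tdgf1* had no peak in replicate 2 against mCherry, whose list was the shortest. The lists give no read depth, so a peak missing from a list does not show that the factor was absent there, and mESCs are not the embryos in which RNA was measured.

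**Figure D4:**
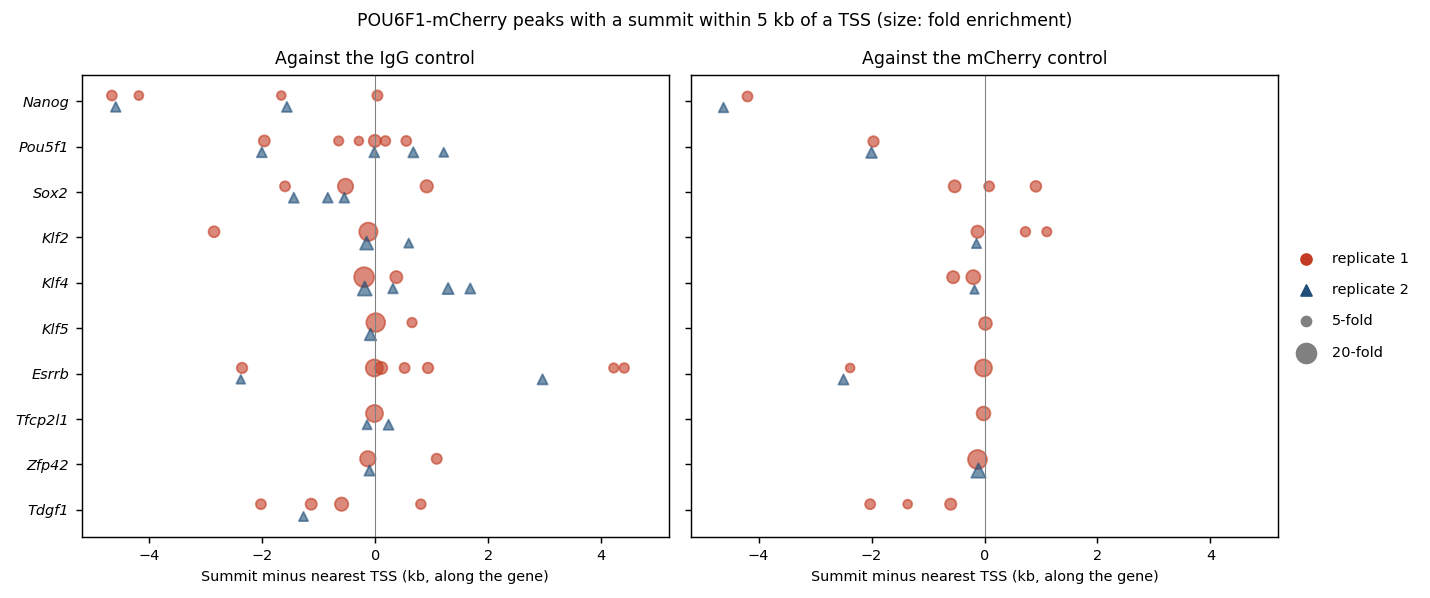
Peaks whose summit lies within 5 kb of an annotated start site of a member, one row per gene, by the distance of the summit from the nearest site in kb along the gene. Panels show the IgG and mCherry controls, circles replicate 1, triangles replicate 2, and the size of a point its fold enrichment. The promoter peak of *Zfp42* reached 18.5 and 10.7 against mCherry, and that of *Klf4* 20.2 and 10.1 against IgG.

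The levels of the members were also set against *Pou6f1* across embryos, apart for control and null embryos. *Pou6f1* had 17.6 to 78.0 CPM in null embryos, 3.32 to 28.3 CPM in wild-type embryos at E2.5 and 23.04, 31.5 and 55.0 CPM in wild-type embryos at E2.75. In the 16 het and wild-type embryos *Klf5* had the strongest relation, with Pearson's r = -0.715 (permutation p = 0.00174) and Spearman's rho = -0.709 (permutation p = 0.00278). Adjusted over all 13415 genes these were 0.197 and 0.221, so the relation did not pass the correction. Without the 2 embryos farthest from the *Pou6f1* median r was -0.693, and within the stages it was -0.274 at E2.5 (n = 8) and -0.749 at E2.75 (n = 8). For *Nanog* r was -0.0495 and rho -0.0882 (permutation p = 0.860 and 0.747), and within the stages r was -0.123 at E2.5 (n = 8) and -0.677 at E2.75 (n = 8). The other 8 members had r from -0.243 to 0.420, each with an adjusted p of 0.390 or more. In the 7 null embryos every member had an adjusted p of 1. These were 10 members in 2 groups of embryos, or 20 relations.

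By their pattern over all 23 embryos, the genes most like *Nanog* were *Npdc1* (Pearson's r of log2 CPM 0.815), *Dusp3* (0.793) and *Fstl3* (0.778), out of 13415 genes. Those most like *Pou5f1* were *Isyna1* (0.867), *Fkbp8* (0.858) and *Wdr4* (0.856). These are descriptions, since the embryos share stage and genotype groups and the genes were picked for the highest r.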

How the data were processed

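Single-embryo libraries were made with oligo-dT, template switching and Nextera XT. The authors trimmed reads with Cutadapt 3.4, used STAR 2.7.8a for alignment and HTSeq 0.11.4 for gene counts on GENCODE vM21 (GRCm38), without strand and with intersection-strict, and deposited raw counts per gene, which include ERCC transcripts. For ChIP-seq, the authors aligned with Bowtie2 2.4.4, filtered with Sambamba 0.8.1 and called peaks per replicate with MACS2 2.2.7.1. Per the file headers and format, the deposited peak lists hold a score, a fold enrichment, and −log10 p and q values. The methods name 3 replicates and the labels 2. Which list used which control was taken from the study's supplementary text.

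Counts were fitted with edgeR 4.0.16 (TMM, filterByExpr, quasi-likelihood) in R 4.3.3. The stages-merged fit held 3 genotype groups, the within-stage comparisons the embryos of that stage, and the stage and interaction fits all 6 groups. Spike-ins and lines that name no gene were left out of library sizes. Reads not wholly within the exons of a gene made up 20.99% to 43.9% and ERCC reads 2.06% to 7.44%. The prior count of log2 CPM was 2. Scripts were tested on simulated data. DESeq2 1.42.0, other scalings, no filter, stage and block terms and leave-one-out fits were the alternatives. Depth limits the genes with few counts, and PCR copies were not marked by molecular identifiers, so that counts are not independent molecules. Motifs were searched in RefSeq promoters (GRCm38.p6). A permutation test of single genes was exact and two-sided. Libraries of a group differed by more than sampling noise, so none was counted as a repeat. The named genes were the 10 members, the called genes of the lists, *Dis3* and *Pou6f1*, the defining marker of each cell type, and for *Nanog* and *Pou5f1* the 3 genes of highest r. The members and lists were chosen with earlier results of these data known.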

Additional observations from a re-analysis of the deposited data

Results flagged for a closer look

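In 36 groups of 4 or more embryos (members, *Dis3* and *Pou6f1*), the highest or lowest embryo was compared with the rest by Dixon's ratio. For normally distributed values chance flags about 1 in 20 groups, a rate that does not hold for *Sox2*, with counts at or near 0. *Sox2* in E2.5 wild-type replicate 1 was at 4.55 CPM (56 counts), while the other 5 wild-type embryos had 0. *Sox2* in E2.5 null replicate 4 was at 2.10 CPM from 9 counts, against 0 to 0.103 CPM in the other 3 null embryos. *Tdgf1* in E2.75 het replicate 5 was at 302 CPM, against 76.6 to 116 CPM in the other 4 het embryos. *Pou6f1* in E2.5 wild-type replicate 3 was at 28.3 CPM, against 3.32 to 12.4 CPM in the other 5.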

How the results depend on the processing

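The *Klf5* fall between the stages in wild-type embryos and the *Zfp42* fall in null vs. het at E2.75 were called in every fit that left out 1 embryo, but *Klf5* was not called with ERCC scaling (-0.78) and *Zfp42* not with the replicate block (-1.24). Members called, by comparison, changed as follows. In merged null vs. het (0 called), 4 were called with ERCC scaling (*Nanog* -2.40, *Pou5f1* -1.16, *Zfp42* -2.07, *Tdgf1* -1.82), 1 with null and het embryos alone (*Nanog* -1.40) and 0 to 1 without single embryos. In null vs. het at E2.5 (0), ERCC scaling called 4. In null vs. het at E2.75 (1), ERCC scaling called 3 and no filter 3 (*Nanog* and *Tdgf1* added in both). In null vs. wild-type at E2.75 (2), ERCC scaling called 1, and leaving out single embryos 0 to 1, while DESeq2 called 3 (*Klf4* added, 1.06) and no filter 3 (*Tdgf1* added, -1.13). In the wild-type stages (2), ERCC scaling called 4, and leaving out single embryos 1 to 2. In the interaction (0), DESeq2 called 2 (*Klf5*, *Klf4*) and no filter 2 (*Klf5*, *Tfcp2l1*). The interaction fits without single embryos were chosen after seeing the data. Members with a consensus peak fell from 10 to 2 against IgG at a −log10 q of 10 in both replicates, beside 33.6% of the genes tested. Against mCherry they fell from 5 to 1 (beside 9.18% of the genes), or to 3 within 1 kb of a start site (beside 24.0%). ERCC scaling moved the median of all genes by -1.08, -0.37 and 0.71 (merged null vs. het, null vs. wild-type, het vs. wild-type), by -1.15 and -0.46 at E2.5, by -0.74 and -0.40 at E2.75, and by 0.89 between the stages. It called 289 genes higher and 4487 lower in merged null vs. het, and 3218 higher and 59 lower between the stages. The causes were not tested.

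The replicate numbers did not pair the embryos: deviations of same-numbered embryos correlated from -0.0615 to 0.0858 at E2.5 and from -0.106 to 0.0569 at E2.75. With the replicate block, 0 members were called in null vs. het and 0 in null vs. wild-type at E2.75. *Zfp42* was then at -1.24 and -1.08 and *Klf5* at 1.34 (adjusted p = 0.172, 0.171 and 0.194 by edgeR). Values that changed sign with the replicate block were *Pou5f1* 0.25, *Zfp42* 0.26 and *Tdgf1* -0.21 (null vs. wild-type, E2.5) and *Nanog* 0.33 (E2.75). With stage and replicate block they were *Klf5* 0.45 and *Tfcp2l1* -0.028 (merged null vs. wild-type) and *Klf4* 0.10, *Klf5* 0.24, *Esrrb* -0.15 and *Tdgf1* -0.071 (het vs. wild-type). With a stage term alone they were *Klf5* 0.18 and *Tfcp2l1* -0.059, and *Klf5* 0.12 and *Esrrb* -0.11.

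No called value changed sign. Uncalled log2 values changed sign with DESeq2 for *Zfp42* (0.075, null vs. wild-type, E2.5) and *Nanog* (0.056, E2.75). Without a filter they did so for *Sox2* (-0.040) and *Esrrb* (-0.080) in merged null vs. het, and for *Esrrb* (-0.019) and *Pou6f1* (-0.011) in null vs. wild-type at E2.75. With ERCC scaling they were, in merged null vs. het, *Sox2* -0.69, *Klf2* -0.49, *Klf5* -0.96 and *Esrrb* -0.93. In merged null vs. wild-type they were *Pou5f1* -0.11 and *Esrrb* -0.18, and in het vs. wild-type *Klf4* 0.51, *Klf5* 0.74 and *Pou6f1* 0.068. At E2.5 they were *Sox2* -0.26 and *Klf2* -0.42 (het) and *Tdgf1* -0.079 (wild-type). At E2.75 they were *Pou5f1* -0.62, *Klf2* -0.12, *Klf5* -0.46, *Esrrb* -0.15 and *Tfcp2l1* -0.25 (het), and *Esrrb* -0.32 and *Pou6f1* -0.55 (wild-type). Between the stages *Pou5f1* was at 0.58.

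Without single embryos, these uncalled values spanned 0. *Esrrb* ran from -0.068 to 0.28 (het vs. wild-type), -1.26 to 1.03 (null vs. het, E2.5), -0.13 to 0.18 (merged), -0.51 to 0.10 (null vs. wild-type, E2.5), -0.013 to 0.064 (E2.75), -0.0057 to 0.29 (merged) and -0.055 to 0.55 (interaction). *Klf2* ran from -0.034 to 0.14 (stages) and -0.065 to 0.68 (interaction). *Klf4* ran from -0.38 to 0.030 (het vs. wild-type) and -0.33 to 0.10 (merged null vs. het). *Klf5* ran from -0.37 to 0.038 (het vs. wild-type), -0.14 to 0.69 (null vs. het, E2.75), -0.063 to 0.27 (merged) and -0.30 to 0.16 (merged null vs. wild-type). *Nanog* ran from -0.998 to 0.51 (stages) and -0.39 to 1.11 (null vs. wild-type, E2.75). *Sox2* ran from -3.48 to 3.64 (stages), -0.63 to 1.06 (null vs. het, E2.75), -0.62 to 0.76 (merged) and -1.83 to 6.95 (interaction). *Tdgf1* ran from -0.0014 to 0.44 (het vs. wild-type) and -0.31 to 0.55 (null vs. wild-type, E2.5). *Tfcp2l1* ran from -0.21 to 0.36 (stages), -0.065 to 0.68 (null vs. het, E2.75) and -0.23 to 0.42 (merged null vs. wild-type). *Pou5f1* ran from -0.52 to 0.024 (null vs. het, E2.5), *Zfp42* from -0.27 to 0.14 (null vs. wild-type, E2.5), *Dis3* from -0.068 to 0.37 (stages), and *Pou6f1* from -0.56 to 0.14 (het vs. wild-type) and -0.89 to 0.51 (null vs. wild-type, E2.75).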
